A study of Mus musculus with 9 samples.

Results

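Binding of TCF1 was described by 83 regions of the mouse autosomes in which chromatin immunoprecipitated with an antibody against TCF1 (CST#2203) gave at least 3 times the read level of unprecipitated input chromatin. The regions were chosen by a rule on the 2 libraries of the BV line, TCF1 and input BV, out of 9 libraries in the series. Reads had been counted in windows of 2 kb (2000 bp) that step by 1 kb (1000 bp) along the mm9 genome. Each library was scaled so that a typical autosomal window had a level of 1, and enrichment was the scaled TCF1 level over the scaled input level with 0.5 added to both. Of 2654924 windows in all, 2472353 were autosomal and 2240703 (90.6%) passed the limits on input. In these, 155 windows reached 3-fold (0.00692% of those kept), and overlapping or adjoining windows were merged into the 83 regions.

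TCF1, the product of the Tcf7 gene, belongs to the TCF/LEF family of DNA-binding proteins, which are the nuclear end of canonical WNT signalling. When a WNT ligand binds its receptors, beta-catenin is spared from destruction, enters the nucleus and joins TCF/LEF proteins on their target genes. Many of the best known targets are themselves parts of the pathway, such as the feedback inhibitor Axin2. In the early embryo WNT3 acts with BMP4 on the epiblast, where mesoderm genes such as T (Brachyury) and the first primordial germ cells arise.

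All cells were labelled as epiblast-like cells (EpiLC) of strain C57BL/6. The protocols in the labels describe EpiLC made from embryonic stem cells with Activin A, bFGF and serum replacement. These were then moved to floating culture in medium containing LIF, and BMP4 and WNT3A were added in some cultures and not in others. Which cytokines the TCF1 cells had, and for how long they were cultured, is not in their labels. BV is a line with a Blimp1-mVenus reporter (Blimp1 is the product of Prdm1) and PV a line with a Prdm14-mVenus reporter. The other immunoprecipitated libraries were SMAD1 (antibody BMR00479) after 12, 24 and 36 h in BV and after 36 h in PV, and T (sc-17743) in PV. The inputs were titled BV, BVSC and PV, and the first 2 carry the BV genotype in the labels. Each group had 1 library, so nothing below has a spread between replicates or a p-value. The interval beside a ratio is an exact (Clopper-Pearson) 95% interval from the TCF1 and input counts of the window, and covers counting error only.

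Over all chromosomes of the deposited windows, the TCF1 library held 27360924 reads and input BV held 134657262. A typical autosomal window held 22.7 and 112 counts. The other inputs held 42532115 (PV) and 46750433 (BVSC) reads, and the SMAD1 and T libraries between 14925074 and 43354004. The reporter loci checked the lines. Around the start of Prdm1 the median scaled input was 11.9 in input BV and 5.83 in input BVSC against 1.19 in input PV. Around Prdm14 it was 9.52 in input PV against 1.12 in input BV, so each line's input was high at the gene of its own reporter. Around Dppa3, a germ cell gene, input BVSC stood at 12.5 and the other inputs at 1.08 and 1.00, so input BV and input BVSC differed despite their shared label. The SMAD1 24 h library also stood apart at the genes of Lef1 and Tcf7, as given with those loci.

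The sequence that TCF/LEF proteins bind was looked for in the promoters of the genes where the data bear on it. Promoters were 250 bases before each annotated start, from RefSeq on GRCm38.p6, a different build from the windows, so their coordinates cannot be set against window positions. The words searched on both strands were CTTTGAT and CTTTGAA for TCF/LEF and AGGTGTGA for T-box proteins. Of the 12 genes with a TCF1 region near the start (named below), 10 had entries, with 16 promoters in all, and Lgr5 and Ccnd1 had none. A TCF/LEF word stood in 3 of the 16 promoters, at Sp5, T and Sp8, against 7.48% of all 32851 promoters (3.21% with CTTTGAT and 4.46% with CTTTGAA). The T-box word stood in none of the 16, against 1.12% of all promoters. The following 3 are shown because they pair the strongest region, which has no word in this window, with a WNT feedback gene and a mesoderm gene that have one. Capitals mark the TCF/LEF word, and each runs 5′ to 3′ toward the start.
Axin2 (GRCm38.p6 chr11:108920099-108920348, plus strand): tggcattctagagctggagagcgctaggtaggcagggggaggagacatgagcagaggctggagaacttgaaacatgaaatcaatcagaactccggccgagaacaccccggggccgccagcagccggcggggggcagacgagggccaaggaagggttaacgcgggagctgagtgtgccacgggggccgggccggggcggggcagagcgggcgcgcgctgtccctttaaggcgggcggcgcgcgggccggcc
Sp5 (GRCm38.p6 chr2:70474673-70474922, plus strand): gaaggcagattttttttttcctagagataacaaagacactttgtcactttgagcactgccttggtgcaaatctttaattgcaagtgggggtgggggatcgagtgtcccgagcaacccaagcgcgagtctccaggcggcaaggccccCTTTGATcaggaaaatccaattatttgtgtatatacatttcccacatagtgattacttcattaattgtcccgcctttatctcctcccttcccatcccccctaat
T (GRCm38.p6 chr17:8434173-8434422, plus strand): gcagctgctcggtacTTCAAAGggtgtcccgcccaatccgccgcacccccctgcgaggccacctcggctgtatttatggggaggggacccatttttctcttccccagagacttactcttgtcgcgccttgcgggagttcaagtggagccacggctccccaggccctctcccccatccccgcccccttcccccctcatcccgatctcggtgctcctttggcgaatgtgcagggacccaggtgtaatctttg

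The word of Sp5 starts 104 bases before the gene's start and is CTTTGAT on the same strand. The word of T starts 235 bases before the start and is CTTTGAA read on the reverse strand. A match is only a run of letters, and the 2 kb windows do not place the TCF1 signal on it.

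The 83 regions were narrow, and TCF1 enrichment was lower on either side of them. Enrichment at the best window ranged from 3.01 to 9.12 with a median of 3.98, and 40 regions reached 4-fold, 20 reached 5-fold, 7 reached 6-fold and 2 reached 8-fold. A region held 2 windows in 64 cases, 1 window in 16, 3 windows in 2 and 5 windows in 1. The best windows held between 66 and 270 TCF1 reads (median 125) and between 38 and 187 input reads (median 109). The plain ratio of scaled levels, without the added 0.5, ranged from 3.76 to 21.1 with a median of 5.55, and the choice of regions fixes that it lies above 3. Just inside the threshold the regions stood at 3.01, 3.02 and 3.06, and the windows just outside at 2.99, 2.99 and 2.98, so the edge is a line through a continuous series of values.

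Around the best windows the median TCF1 enrichment fell from 3.98 to 2.20 and 2.79 in the windows 1 kb to either side, which overlap the best one. At 2 kb it was 1.18 and 1.27, and between 3 and 10 kb it stayed near this level. Each best window was chosen as the highest of its region, and kept windows next to a region lie below 3-fold. Some fall to either side is thus fixed by the choice. The median scaled input at the centre was 0.971, close to the 1.05 of all windows kept, and 9 regions lay below 0.75. The median over regions hides few wide ones: the region at Lef1 was 7 kb wide and no other was wider than 4 kb.

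**Figure D1:**
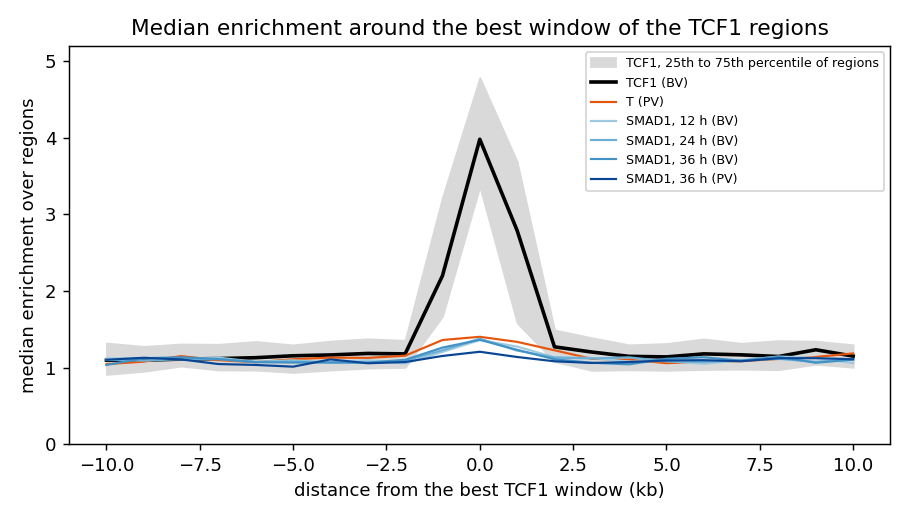
Median enrichment over the 83 TCF1 regions (y axis) against distance in kb from the best TCF1 window (x axis), for TCF1 and the 5 other immunoprecipitated libraries over the input of their line. The grey band spans the 25th to 75th percentile of TCF1. TCF1 peaked at 3.98 at the centre, by construction, and was at 1.18 and 1.27 by 2 kb. The other medians at the centre lay between 1.21 and 1.40.

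The same rule run on inputs gave the background. Input PV over input BV reached 3-fold in 1 window (4.46e-05%, highest 3.58) and input BVSC over input BV in 1 window (4.46e-05%, highest 3.10). With windows filtered only by the inputs not under test, input PV gave 3 regions and input BVSC gave 15, and none of their windows was a TCF1 window. At 2-fold the TCF1 library gave 1841 regions (2291 windows), against 22 regions for input PV and 127 for input BVSC. At least 2-fold below input it had 20546 windows, more than the 2291 above. A typical TCF1 window held 22.7 counts, fewer than in input PV (34.9) or input BVSC (38.3). The inputs thus do not match its counting noise. In the opposite direction 89 windows had TCF1 at least 3-fold below input and 0 at least 4-fold below. Above input, 66 windows were at 4-fold or more. The 2 directions cannot be compared, because the constant added to both levels limits how far below input a window can fall. Even a window without TCF1 reads keeps that constant, while TCF1 reads above input can rise without such a limit. The 0 against the 66 thus gives no background rate for the regions. Over input BVSC 73 of the 83 regions stayed at 3-fold, over input PV 66 did, and 63 did over both. All 83 were at 2-fold or more over both.

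**Figure D2:**
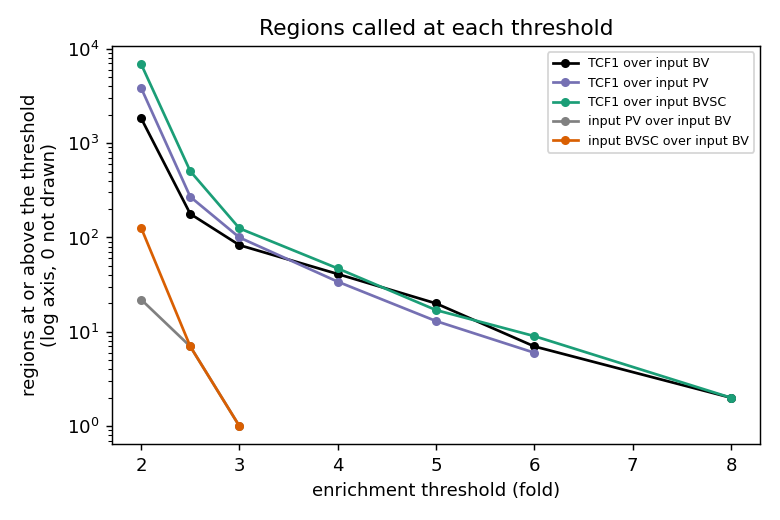
Number of merged autosomal regions (y axis, log scale) at or above each enrichment threshold (x axis, fold), for TCF1 over each of the 3 inputs and for the 2 other inputs over input BV. TCF1 over input BV falls from 1841 regions at 2-fold to 83 at 3-fold and 2 at 8-fold, and each input comparison is down to 1 region at 3-fold.

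Of the 20 strongest TCF1 regions, those ranked 1, 5, 6, 9 and 13 lay at Axin2, Lef1, Sp5, Lgr5 and Tcf7, which are components or targets of the WNT pathway, and the other 15 carry no gene name. Gene names here rest on hand-written mm9 start positions for 38 of 98 listed genes, recalled from general knowledge because no mm9 annotation was used here. They were compiled after the regions had been seen, so counts of named genes are no independent evidence.

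Axin2 encodes a scaffold of the complex that destroys beta-catenin and is a standard readout of WNT activity. Its region, chr11:108780001-108784001, ranked first, with a best window of 162 TCF1 reads against 38 input reads and an enrichment of 9.12. With 1 added in place of 0.5 it fell to 6.09 and the second region, at 6.55, stood above it. The plain ratio was 21.1 (interval 14.8 to 30.9). The scaled TCF1 level was 7.15, against 0.338 in input BV, 0.458 in input PV and 0.392 in input BVSC. The window was thus poor in all 3 inputs, and the TCF1 level itself was not the highest, which was 11.9 at the second region. SMAD1 enrichment there was 1.46, 1.46, 1.27 and 1.10 (12, 24 and 36 h in BV, then 36 h in PV) and T enrichment was 1.85, so no other library approached the TCF1 value.

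Lef1 and Tcf7 encode TCF/LEF proteins themselves, and Tcf7 encodes TCF1. The Lef1 region, chr3:130807001-130814001, was the widest and had a pair of summits. Enrichment was 5.15 and 6.78 in the first 2 windows, 1.86 in the window from 130810001, and 3.65 and 4.16 in the windows from 130811001 and 130812001. The region was counted as 1 because the windows at 3-fold adjoin. At its best window the scaled levels were 8.87 for TCF1 and 0.882 for input BV, with a ratio of 10.1 (interval 7.87 to 12.9). The Tcf7 region, chr11:52096001-52100001, had 197 TCF1 reads against 128 input reads, an enrichment of 5.60 and a ratio of 7.62 (interval 6.07 to 9.60). At both genes the SMAD1 24 h library had very high windows away from the TCF1 summits. Its scaled level was 33.7 in the window from 130813001 at Lef1, where TCF1 stood at 1.63, and 14.0 in the window from 52070001 at Tcf7, where TCF1 stood at 2.65. In the window from 52095001, at the edge of the Tcf7 region, it was 5.42. At the TCF1 summits themselves it was 1.24 (Lef1) and 1.45 (Tcf7), and the SMAD1 12 h library was at 1.65 and 1.06 in the windows from 130813001 and 52070001. The high 24 h windows were thus low at 12 h and did not coincide with the TCF1 summits.

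Sp5 encodes a zinc finger protein that is a direct WNT target, and Lgr5 a receptor for R-spondins, which strengthen WNT signals. The Sp5 region, chr2:70312001-70315001, had 180 TCF1 reads and 89 input reads, an enrichment of 6.53 and a ratio of 10.0 (interval 7.73 to 13.1). It was 1 of 5 TCF1 regions that overlapped a region of the T library at 3-fold, with T at 3.11, and its SMAD1 values were between 1.23 and 1.45. The Lgr5 region, chr10:115022001-115025001, had 156 TCF1 reads and 86 input reads, an enrichment of 5.83 and a ratio of 8.98 (interval 6.86 to 11.8). T was at 1.80 there and SMAD1 between 0.969 and 1.60.

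**Figure D3:**
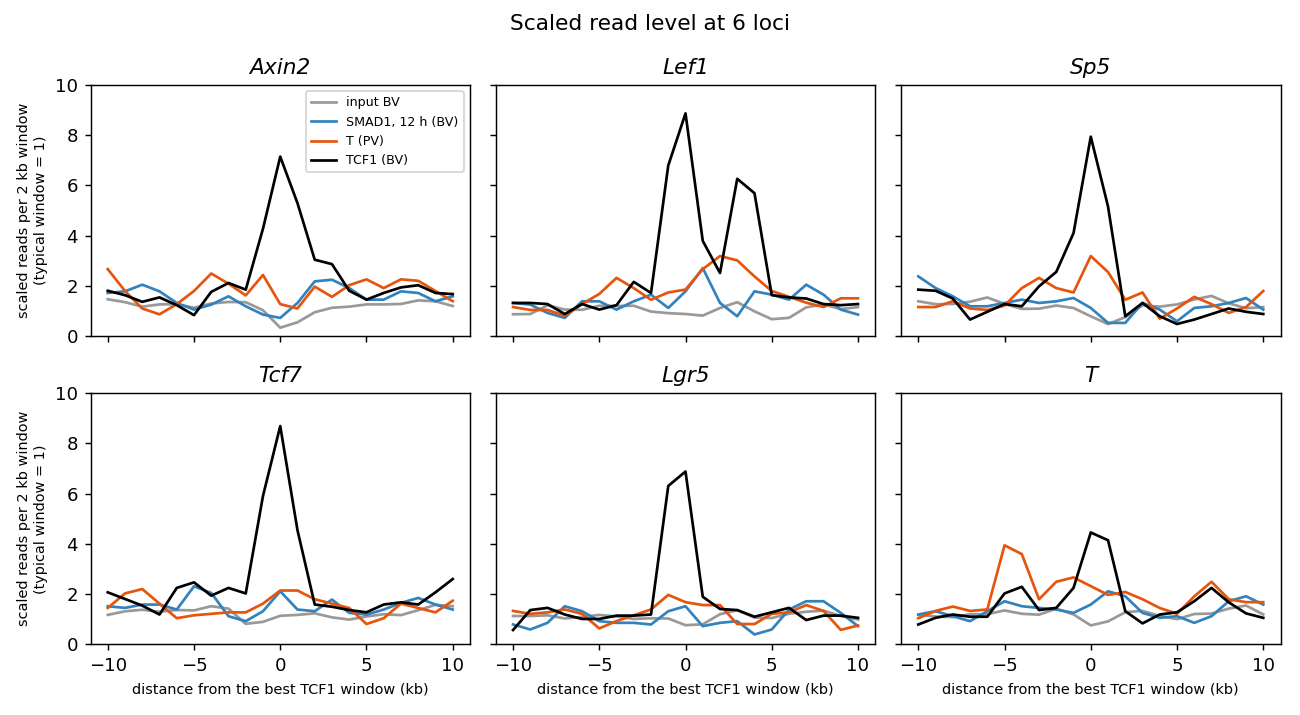
Scaled reads per 2 kb window (y axis, 1 is a typical autosomal window) against distance in kb from the best TCF1 window (x axis) at Axin2, Lef1, Sp5, Tcf7, Lgr5 and T, for TCF1, input BV, T and SMAD1 at 12 h. TCF1 peaks at 7.15, 8.87, 7.94, 8.69, 6.88 and 4.46 in that order, with a pair of summits at Lef1, and the T library has its own maximum of 3.94 at the T locus 5 kb from the TCF1 summit.

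The other 15 of the 20 strongest regions carry no gene name here. The strongest of them, chr11:89047001-89050001, had the most TCF1 reads of all regions (270 against 109 input reads), an enrichment of 8.44 and a ratio of 12.3 (interval 9.79 to 15.5). It was followed by chr9:51573001-51576001 at 7.23, chr1:74633001-74636001 at 6.88 and chr4:119920001-119923001 at 6.41. These 4 were as strong as the regions of the named WNT genes, with T between 0.904 and 1.90 and SMAD1 between 1.08 and 1.82. In falling order, the next were chr3:138306001-138309001 (5.91), chr1:89070001-89073001 (5.72), chr5:101103001-101106001 (5.66), chr2:29521001-29524001 (5.63) and chr9:46250001-46253001 (5.42). Then came chr5:38286001-38289001 (5.40), chr4:107405001-107408001 (5.39), chr16:21701001-21704001 (5.32), chr8:129061001-129064001 (5.29), chr19:59491001-59494001 (5.10) and chr19:41554001-41557001 (5.07). Among these 11 regions only chr4:107405001-107408001 had another library at 3-fold, with T at 12.7.

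Near listed genes, 12 of the 37 with a start position and usable windows had a window at 3-fold within 10 kb of the start. Of all windows kept, 0.0794% had such a window within 10 kb. Over both other inputs 9 of the 12 stayed at 3-fold. The highest value within 10 kb had a median of 1.93 over the 37 genes and of 1.41 over all windows kept, of which 1.68% reached 2-fold. The genes were chosen with the regions in view, so the difference from the background is a description only. Positions were written for 12 of 27 WNT feedback and target genes and 3 of 25 WNT ligands and receptors. They were written for 9 of 20 primitive streak and mesoderm, 9 of 15 germ cell and pluripotency, and 5 of 11 BMP genes. The shares at 3-fold can thus not be compared between lists.

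Among WNT feedback and target genes, 8 of the 12 with a position, out of 27 listed, reached 3-fold. Besides the 5 above these were Cdx2 (3.37), a caudal homeobox gene, Ccnd1 (3.19), which encodes cyclin D1, and Sp8 (3.15), a relative of Sp5. The 4 others were Nkd1 (2.14), Myc (2.04), Tcf7l2 (1.74) and Znrf3 (1.63). Of these, Znrf3, which encodes a ubiquitin ligase that removes WNT receptors, had a region within 50 kb of the start, chr11:5310001-5313001 at 3.12. Tcf7l2 reached 1.83 within 50 kb, but a region at 3.57, chr19:55866001-55869001, lay just beyond that limit. Over the other inputs 2 of the 8 calls were lost: Cdx2 was at 2.86 over input PV and Ccnd1 at 2.79 over input BVSC. At Ccnd1, Cdx2 and Sp8 the best windows held between 88 and 110 TCF1 reads, so these are among the weaker regions.

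Among WNT ligands and pathway members the ligand gene Wnt6 had a region at 3.15, with 67 TCF1 reads against 67 input reads and a low scaled input of 0.597. It fell below 3-fold over both other inputs, to 2.64 (BVSC) and 2.84 (PV). Axin1, the constitutive relative of Axin2, stood at 1.99 and Wnt3 at 1.94. The interval of the ratio at Axin1 was 1.77 to 3.29 and that at Axin2 14.8 to 30.9. Both windows were picked as the highest for TCF1 near their gene, and the intervals cover counting error only. Scaled input BV was 1.17 at Axin1 and 0.338 at Axin2, and a difference between the genes was not tested.

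Among primitive streak and mesoderm genes, Evx1 and T reached 3-fold out of 9 with a position. Evx1, a homeobox gene of the streak, had an enrichment of 4.12 (121 TCF1 and 103 input reads, ratio 5.82, interval 4.44 to 7.64). T, which encodes the mesodermal factor Brachyury, had a region at chr17:8626001-8629001 with an enrichment of 3.94 (101 TCF1 and 85 input reads, ratio 5.89, interval 4.37 to 7.95). The scaled TCF1 level at T was 4.46, against 0.757, 0.801 and 0.679 in inputs BV, PV and BVSC. The T library was at 2.32 there and at 3.94 in the window from 8621001, where TCF1 was at 2.03, so the maxima of the 2 libraries lay in different windows. Mixl1 (2.18), Mesp1 (1.93), Fgf8 (1.92), Eomes (1.87), Foxa2 (1.77), Mesp2 (1.73) and Tbx6 (1.64) stayed below 3-fold.

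Of 5 BMP pathway genes with a position only Msx1, a homeobox target of BMP signalling, had a region, chr5:38217001-38220001, at 3.96. A stronger region, chr5:38286001-38289001 at 5.40, lay 66 kb away from it. SMAD1 enrichment at Msx1 was 1.87, 1.86 and 2.73 at 12, 24 and 36 h in BV and 1.44 in PV. The BMP antagonist gene Nog was at 2.30. The SMAD1 target genes Id1, Id2 and Id3 were at 1.53, 1.70 and 1.62 for TCF1, whereas SMAD1 at 24 h was at 2.38, 2.13 and 1.21 in the same windows. These windows were picked as the highest for TCF1, so SMAD1 may be higher elsewhere near the genes.

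Among the 8 germ cell and pluripotency genes with usable windows, none reached 2-fold within 10 kb of the start. Within 50 kb Kit reached 2.02. Within 10 kb Klf4 was highest at 1.82, followed by Nanog (1.81), Esrrb (1.73), Pou5f1 (1.69), Sox2 (1.59), Prdm14 (1.53), Dppa3 (1.42) and Kit (1.39). The median of these 8 was 1.64. At Prdm14 and Dppa3 only 3 and 6 of 22 windows passed the limit on input, since input PV (Prdm14) and input BVSC (Dppa3) were raised there. At Prdm1, which encodes Blimp1, no window passed. There the best window without the limit had 390 TCF1 and 1225 input reads, an enrichment of 1.55 and a ratio of 1.58 (interval 1.40 to 1.77), on scaled levels of 17.2 and 10.9.

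**Figure D4:**
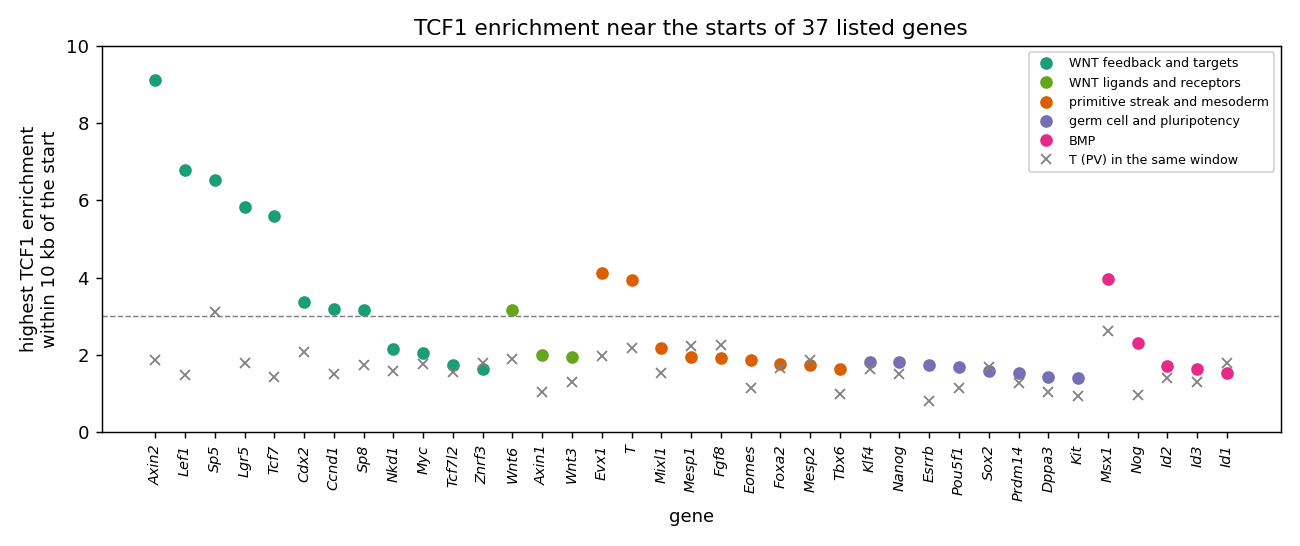
Highest TCF1 enrichment within 10 kb of the start (y axis, filled points) for 37 listed genes (x axis), grouped and coloured by list, with the T library in the same window as crosses and 3-fold as a dashed line. The 12 genes above the line run from Axin2 at 9.12 to Wnt6 at 3.15, and the 8 germ cell and pluripotency genes lie between 1.39 and 1.82.

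The SMAD1 and T libraries, which the choice of regions did not use, were slightly raised at the TCF1 regions and rarely high. At the best windows the median enrichment over the input of the line was 1.36, 1.38 and 1.36 for SMAD1 at 12, 24 and 36 h in BV, 1.21 for SMAD1 in PV (36 h) and 1.40 for T. Over all windows kept the medians lay between 0.970 and 0.990. In BV, SMAD1 reached 2-fold at 4 regions at 12 h (4.82% of regions), at 3 at 24 h (3.61%) and at 3 at 36 h (3.61%). In PV it did so at 2 (2.41%). Of all windows kept, 0.161%, 0.0331% and 0.05% did in BV and 0.052% in PV. T reached 2-fold at 13 regions, or 15.7%, against 0.428% of all windows kept. Over input BVSC these counts were 9, 6 and 8 for SMAD1 in BV, 5 for SMAD1 in PV and 22 for T (26.5%), against 0.353%, 0.140%, 0.280%, 0.106% and 0.641% of all windows kept. The TCF1 and BV SMAD1 values share input BV as denominator, and T and SMAD1 in PV share input PV. The T values thus share no library with the ratio that chose the regions.

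None of the 5 other libraries was at 2-fold in 66 of the 83 regions, while 12 had 1 such library, 3 had 2, and 1 each had 3 and 4. Over all windows kept, 99.4% had none. At 1.5-fold 24 of the 83 regions had none, against 89.1% of all windows kept. At 3-fold, 5 TCF1 regions overlapped a region of T, which is 6.02% of the TCF1 regions and 0.380% of the 1316 T regions. Of all windows kept, 0.216% overlapped a T region, although a single window is narrower than most TCF1 regions. Besides Sp5 these were chr4:107405001-107408001, chr8:35868001-35871001, chr14:61674001-61677001 and chr7:26360001-26362001. At chr4:107405001-107408001 T stood at 12.7 and TCF1 at 5.39, with scaled levels of 17.8 and 6.66. At chr7:26360001-26362001, near the bottom of the TCF1 ranking at 3.02, T stood at 13.0 with a scaled level of 23.2. Across the 1316 T regions the median TCF1 enrichment was 1.10.

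With SMAD1, 1, 3 and 1 of the 83 regions overlapped at 3-fold at 12, 24 and 36 h in BV and 1 in PV, which is 0.429%, 3.41%, 2.08% and 0.741% of the regions of those libraries. Of all windows kept, between 0.00736% and 0.0396% overlapped a SMAD1 region. The region chr11:120091001-120094001 overlapped a region of all 4 SMAD1 libraries, with SMAD1 at 7.89, 4.33, 5.34 and 5.65, TCF1 at 4.19 and T at 1.35. A second TCF1 region at 4.67 lay 7 kb from it, chr11:120101001-120104001, where SMAD1 was between 1.14 and 1.57. At 24 h the Lef1 and Tcf7 regions overlapped SMAD1 regions as well, through the windows from 130813001 and 52095001 and not at their summits. Apart from those 2, each SMAD1 library shared 1 of the 83 regions with TCF1.

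**Figure D5:**
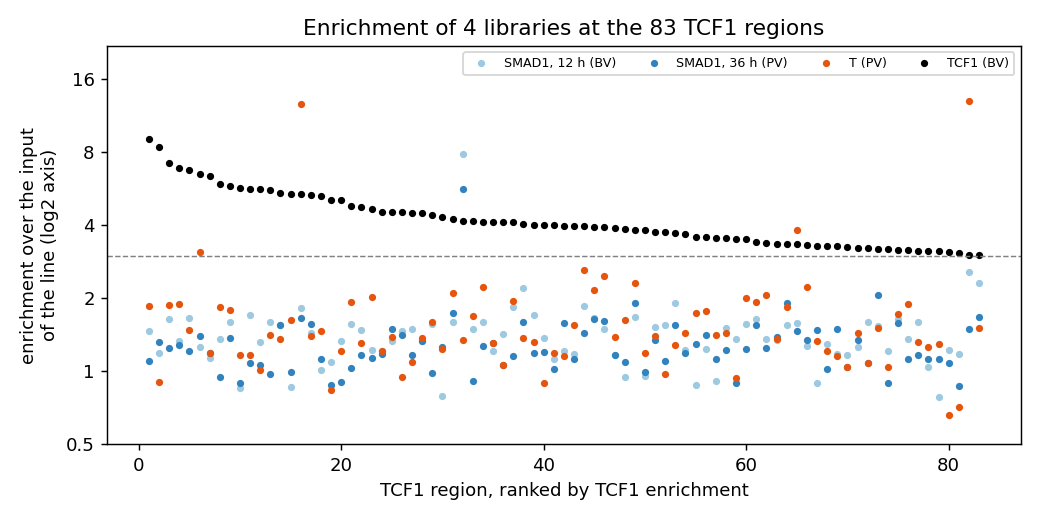
Enrichment over the input of the line (y axis, log2 scale) at the best window of each TCF1 region, ranked by TCF1 (x axis), for TCF1, T and SMAD1 at 12 h in BV and 36 h in PV. TCF1 falls from 9.12 to 3.01 by construction, T stands out at 12.7 and 13.0 at 2 regions, and SMAD1 stands out at chr11:120091001-120094001.

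The regions were spread unevenly over the chromosomes. Chromosome 11 held 14 of the 83 (16.9%) on 5.14% of the windows kept, or 1.22 per 10 Mb, and chromosome 19 held 6, or 1.08 per 10 Mb. Chromosome 2 had 9 regions (0.536 per 10 Mb) and chromosome 8 had 8 (0.672), while chromosomes 13, 15, 16 and 17 had 1 each. The mean scaled level of chromosome 11 was 1.39 in TCF1, 1.27 in input BV and between 1.24 and 1.41 in the SMAD1 libraries of BV. It was 1.05 in input BVSC and between 1.11 and 1.16 in the PV libraries. With levels set within each chromosome, chromosome 11 held 11 regions and chromosome 19 held 6. Chromosome 7 then went from 5 to 2, chromosome 14 from 2 to 5, chromosome 6 from 4 to 6, and chromosomes 3 and 10 from 3 to 4. Counts per chromosome thus depended on the scaling. On the X chromosome, outside the rule, the highest TCF1 enrichment was 2.93. Pairs of regions within 100 kb occurred at 4 places: the pair on chromosome 11 just given, the pair near Msx1, chr14:61664001-61667001 with chr14:61674001-61677001 (7 kb apart, at 4.42 and 3.34), and chr19:46322001-46325001 with chr19:46412001-46415001 (87 kb apart, at 3.77 and 4.13).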

How the data were processed

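The authors deposited whole-number read counts per 2 kb window, with no normalization seen in the values. The submitters' processing notes name Bowtie 0.12.8 and mm9. Of read filters nothing is given in the sources used here. Reads were single-end, 50 bp, from a SOLiD 5500xl, per the labels' protocols. Each library was scaled to mean 1 over 1977886 autosomal windows between the 10th and 90th percentile of mean input. Windows with mean scaled input under 0.25 (230555) or any input over 3 (1095) were dropped. In 8 libraries the windows split into 1 kb bins without negative values, while for input BVSC this split gave 47.3% negative bins. How that library was counted is not given, and it enters the window filter and the values over input BVSC. Depth was taken from every other window of all chromosomes, X and Y included. Named regions are the 20 strongest, and named genes come from 5 lists (98 genes). The members and lists were chosen with earlier results of these data known, and start positions for 38 genes were written by hand. Python 3.11.15, NumPy 2.4.6, pandas 2.3.3, SciPy 1.17.1 and Matplotlib 3.10.9 were used. The calling code was also run on simulated counts with planted regions. Those windows were drawn independently, although real windows overlap, and regions were planted only where input was near the typical level. The run thus gives no error rate for the regions here.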

Additional observations from a re-analysis of the deposited data

How the results depend on the processing

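The count of 83 regions and their median of 3.98 moved with the threshold, to 178 regions (median 2.95) at 2.5-fold and 41 (4.81) at 4-fold. They moved with the added constant, to 138 regions (median 3.75) at 0.25 and 54 (3.61) at 1. Over input BVSC there were 125 regions (3.61), over input PV 100 (3.65), and with both libraries thinned to 50% of reads 109 (3.65). The other 6 settings, 1 of them (no minimum on input) chosen after seeing the data, gave 80 to 90 regions. The 20 strongest regions stayed at 3-fold under all 7 settings run on them, although with 0.25 added their values could only rise. The values themselves were less stable. With 1 added 15 of the 20 left the interval around their main value, as did 8 over input BVSC and 6 over input PV. Under the other settings 0 did. Over these settings Axin2 ranged from 6.09 (with 1 added, below the second region at 6.55) to 12.6. A minimum mean scaled input of 0.5 was not run on the named regions. It drops the best Axin2 window, which lay below 0.5 in every input, and the next highest window there was at 5.51. Of the 40 regions at 4-fold, 39 were found with 1 added and 38 over input PV, and all 40 under each of the 10 other settings compared by region. Under the 2.5-fold and 4-fold thresholds, with 0.25 added and with no filter on input, finding all 40 was fixed in advance. Over input BVSC the median of SMAD1 at 36 h in PV was 1.37 and that of T 1.60. With 4-fold regions only, 6 listed genes in place of 12 had a region within 10 kb. At 50% of reads 75 of the 83 regions were found again. With 1 library per group no value has a replicate. No paired analysis was possible because each group has 1 library.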
